A study of Rattus norvegicus with 64 samples.

Results

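Cholesterol synthesis in the reconstructed bladder wall was followed through 8 genes, Hmgcs1, Fdps, Fdft1, Sqle, Lss, Cyp51, Dhcr7 and Insig1, out of 15715 genes that could be named on the array. They were chosen as the gene probes whose RefSeq transcript in the array files, with its version removed, belongs to one of these symbols. Of 30367 gene probes, 9 met this rule, 1 for each gene and a second probe for Fdps. Each gene is given by the probe that was brightest on average over all arrays.

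RNA was taken from male Wistar rats in which part of the bladder was removed (hemicystectomy) and replaced with a patch of bladder acellular matrix (BAM), which is bladder wall freed of its cells. The patch was either BAM only or BAM seeded with adipose tissue-derived stromal cells (ASCs) of the third passage, isolated from fat of male Wistar rats, and bladders were collected at 7, 30, 90 and 180 days of follow-up. Each of these 8 groups had 8 arrays, 1 rat per array, 64 in all, labelled with Cy3 on a 1-color Agilent rat array. All groups carried the same operation and the same matrix, and unoperated bladder was not analysed here. The labels and the study's methods call the recipients syngeneic, while a figure caption of the study calls the cells autologous. The age of the recipients was not given in the sources used here. The sample labels and the study's methods number the groups differently and differ in the number of operated rats, so arrays were assigned by graft and day.

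Levels below are log2 of the background-corrected spot signal minus the 75th percentile of the same array, so that 0 is the 75th percentile of that array. Levels of different genes cannot be ranked against each other, since probes differ in brightness. A difference is the level with ASCs minus the level with BAM only, fitted with limma over all 64 arrays. DEGs passed 2 thresholds, a p below 0.01 after Benjamini-Hochberg adjustment and a change of more than 1.5-fold. The share of gene spots well above background was 73.3% to 95.6% on the arrays of 7 and 30 days and 35.5% to 64.6% on those of 90 and 180 days. Each group lay on 1 slide, and the slides of 7 and 30 days shared a scan date that differed from that of 90 and 180 days, so slide and group cannot be told apart, nor scan date and the step from 30 to 90 days. At 30 days, replicates 1 and 2 with ASCs stood apart, with 95.6% and 86.2% of spots above background where the other 6 arrays had 74.1% to 77.2%. Taken over all probes, the difference had a median of -0.16 at 7 days and 0.11 at 30 days, and later of -0.27 (90 days) and 0.06 (180 days). All 8 genes were well above background and below saturation on all 64 arrays, except Dhcr7, for which this held on 6 of the 8 arrays with BAM only at 90 days. In whole tissue, fewer cells of a type and less RNA per cell cannot be told apart.

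Cells build cholesterol from acetyl-CoA through the mevalonate pathway, which makes farnesyl diphosphate, and through the sterol branch, which turns it into squalene, lanosterol and then cholesterol. The genes of these enzymes are switched on by SREBP2, a transcription factor that is held in the endoplasmic reticulum together with SCAP by INSIG proteins while sterols are plentiful, and released to the Golgi and cleaved when sterols run low. Cholesterol is a main lipid of the stiff apical membrane of the urothelium, the epithelium that lines the bladder.

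Promoter sequence was available for 6 of the 8 genes in the RefSeq table of build GRCr8. The GC box GGGCGG, bound by Sp1, was searched in the 250 bases before the start that this table gives. It was found in 6 of 6 promoters, against 32.4% of 27457 promoters in the table. The window of Hmgcs1 lay inside the annotated gene and that of Insig1 partly inside, and both are counted here. The NF-Y box CCAAT was found in 4 of 6 promoters, those of Hmgcs1, Fdps, Insig1 and Lss, against 34.3% of all promoters. Among 12 other enzymes of the pathway with an entry, 11 held CCAAT and 9 held GGGCGG. The sterol regulatory element TCACNCCAC, where N is any base, was found in 0 of 6 promoters, against 0.976% of all, which says only that these letters were not in this window. Each motif was searched on both strands, and no match of one motif overlapped a match of another in the sequences printed here. A match is a description of the letters and not evidence of binding. The windows of Fdps (chr2:176804817-176805066, minus strand), Lss (chr20:12118231-12118480, minus strand) and Cyp51 (chr4:30991443-30991692, plus strand) are shown because these genes were DEGs at 30 days and their windows lie outside the annotated gene. They read 5′ to 3′ toward the gene, with matches of both boxes in capitals, also where the match is on the other strand.
Fdps: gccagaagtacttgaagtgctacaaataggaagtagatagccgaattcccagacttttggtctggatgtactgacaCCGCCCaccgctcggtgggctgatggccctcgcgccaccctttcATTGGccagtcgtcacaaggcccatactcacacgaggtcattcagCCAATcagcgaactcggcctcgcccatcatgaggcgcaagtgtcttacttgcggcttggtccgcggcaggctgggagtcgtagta
Lss: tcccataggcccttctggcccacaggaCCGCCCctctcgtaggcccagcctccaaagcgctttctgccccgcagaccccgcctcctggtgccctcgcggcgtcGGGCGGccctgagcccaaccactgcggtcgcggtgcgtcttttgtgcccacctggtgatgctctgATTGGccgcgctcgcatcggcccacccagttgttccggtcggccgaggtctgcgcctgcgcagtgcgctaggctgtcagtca
Cyp51: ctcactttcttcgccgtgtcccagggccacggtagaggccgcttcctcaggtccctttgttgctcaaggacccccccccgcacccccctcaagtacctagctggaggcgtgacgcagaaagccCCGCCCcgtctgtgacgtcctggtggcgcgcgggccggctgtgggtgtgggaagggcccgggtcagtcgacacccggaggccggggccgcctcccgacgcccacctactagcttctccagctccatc

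At 30 days, genes of cholesterol synthesis were higher when the BAM had been seeded with ASCs. The DEGs were Hmgcs1, Fdps, Lss and Cyp51, each about doubled, which is 4 of 8 genes higher and 0 lower, against 1.37% of all named genes higher and 0.592% lower. Sqle and Dhcr7 differed by similar amounts without passing the adjusted p of 0.01, Fdft1 passed the adjusted p but not the fold change, and Insig1 differed in the opposite direction without passing either. With an adjusted p below 0.05 and no fold threshold, 7 of 8 genes were higher, against 5.26% of named genes. The levels of every array are drawn in the plot of levels by day.

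**Figure D1:**
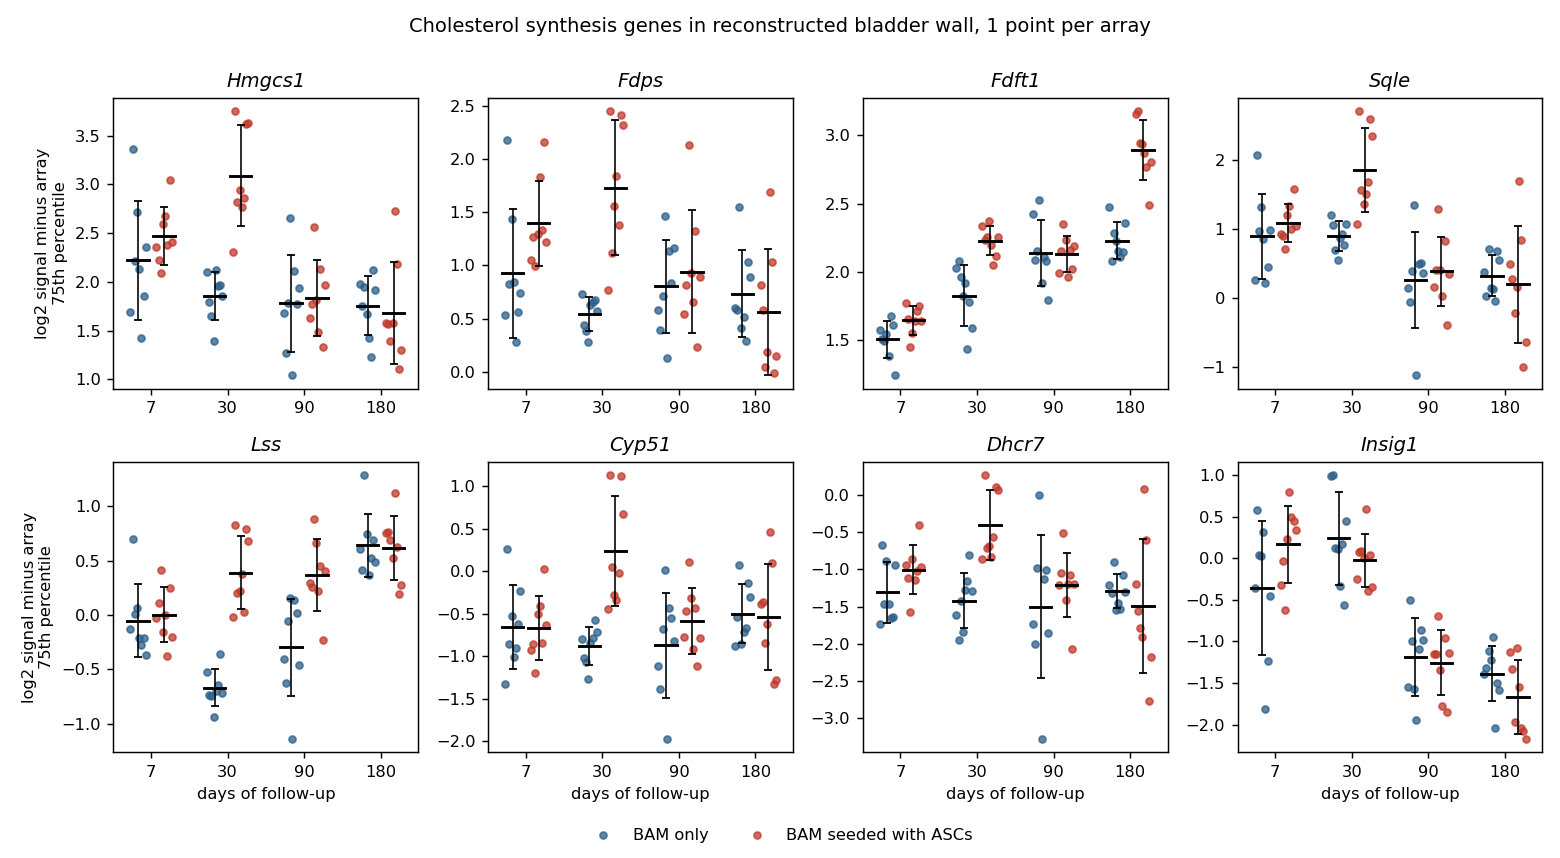
Level of each gene on each array (y axis, log2 signal relative to the 75th percentile of its array) against days of follow-up (x axis) for BAM only (blue) and BAM seeded with ASCs (red), with the mean (bar) and SD (whiskers) of 8 arrays. At 30 days, the red points of Hmgcs1, Fdps, Lss and Cyp51 all lie above the blue points, and at 180 days those of Fdft1 do.

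Hmgcs1 encodes the synthase that joins acetyl-CoA and acetoacetyl-CoA into HMG-CoA, an early step of the pathway. With ASCs at 30 days its level had a lowest value of 2.30, a median of 2.90 and a highest value of 3.75, and with BAM only 1.40, 1.91 and 2.13, so the groups did not overlap. The difference was 1.23 ± 0.22 (SE, n = 8 arrays per group), or 2.35-fold, with an adjusted p of 0.000309. Fdps encodes the synthase that makes farnesyl diphosphate, the last step before the sterol branch. Its level was 0.77, 1.70 and 2.45 (lowest, median and highest) with ASCs and 0.28, 0.60 and 0.73 with BAM only, again without overlap, although the lowest array with ASCs lay just above the highest with BAM only. It was 2.27-fold higher, a difference of 1.19 ± 0.25 with an adjusted p of 0.00167. The second Fdps probe gave 1.16 ± 0.23 with an adjusted p of 0.00119.

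Fdft1 encodes squalene synthase, which commits farnesyl diphosphate to sterols. At 30 days its level was 2.05, 2.24 and 2.37 with ASCs and 1.43, 1.87 and 2.08 with BAM only, and 7 of 8 arrays with ASCs lay above every array with BAM only. The difference of 0.40 ± 0.09 had an adjusted p of 0.00352 but was 1.32-fold, under the fold threshold. Sqle encodes squalene epoxidase, an oxygen-dependent step that can limit the sterol branch. Its level was 1.08, 1.64 and 2.71 with ASCs and 0.56, 0.90 and 1.22 with BAM only, with 1 array of the former inside the range of the latter. The difference was 0.96 ± 0.27, or 1.95-fold, with an adjusted p of 0.0206.

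Lss encodes lanosterol synthase, which closes the sterol rings. Its level was -0.02, 0.30 and 0.83 with ASCs and -0.94, -0.71 and -0.36 with BAM only, without overlap. Lss had the smallest adjusted p of the 8 genes at 30 days, 5.02e-05, for a difference of 1.06 ± 0.16 or 2.09-fold. Cyp51 encodes the demethylase that removes a methyl group from lanosterol. It lay at -0.44, 0.01 and 1.13 with ASCs and at -1.27, -0.82 and -0.57 with BAM only, without overlap but with a narrow gap. The difference was 1.12 ± 0.24, or 2.18-fold, with an adjusted p of 0.00227. Without replicate 2 with ASCs it was 0.99 with an adjusted p of 0.0113, which did not pass. Dhcr7 encodes the reductase that makes cholesterol from 7-dehydrocholesterol. Its level was -0.87, -0.62 and 0.26 with ASCs and -1.95, -1.36 and -0.81 with BAM only, with 6 of 8 arrays with ASCs above every array with BAM only. The difference of 1.02 ± 0.28, or 2.02-fold, had an adjusted p of 0.0186.

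Insig1 encodes the protein that retains SCAP and SREBP in the endoplasmic reticulum, and its own gene is a target of SREBP. At 30 days its level was -0.40, 0.02 and 0.59 with ASCs and -0.56, 0.14 and 1.00 with BAM only, so the ranges overlapped almost fully. The difference was -0.27 ± 0.25 with an adjusted p of 0.514 and a 95% interval of -0.76 to 0.22, which lies below the interval of each of the 4 DEGs.

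The groups at 30 days did not overlap for 4 of the 8 genes, Hmgcs1, Fdps, Lss and Cyp51, where 1.24% of all named genes had every array with ASCs above every array with BAM only. Within the group with ASCs at 30 days, replicate 2 had the highest level of 6 of the 8 genes (Hmgcs1, Fdps, Sqle, Lss, Cyp51 and Dhcr7) and replicate 1 the lowest level of the same 6. Both are the arrays with the largest share of spots above background. Without these 2 arrays, the differences of the 4 DEGs were 1.25 for Hmgcs1, 1.23 for Fdps, 1.09 for Cyp51 and 1.06 for Lss, and all 4 remained DEGs.

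At the other days few of the genes differed between grafts. At 7 days, 0 of 8 genes were DEGs in limma, against 2.63% of named genes higher and 5.12% lower, and 1 of 8, Insig1, had an unadjusted p below 0.05, against 9.93% of named genes higher and 20.8% lower at that p. An unmoderated two-way analysis of variance, the other test run, also called 0 of 8. Insig1 had the largest difference at 7 days, 0.53 ± 0.25 with an adjusted p of 0.134, and a 95% interval of 0.04 to 1.02. Cyp51, the smallest, differed by -0.02 with an interval of -0.50 to 0.46. At 90 days, Lss was the only DEG of the 8, against 3.16% of named genes higher and 7.05% lower. Its level was -0.23, 0.35 and 0.88 with ASCs and -1.14, -0.23 and 0.15 with BAM only, and 7 of 8 arrays with ASCs lay above every array with BAM only. The difference was 0.67 ± 0.16, or 1.59-fold, with an adjusted p of 0.00113, and the call was lost without replicate 5 of the BAM only group. The other 7 genes differed by -0.07 to 0.29 at 90 days. At 180 days, Fdft1 was the only DEG, against 1.02% of named genes higher and 0.0318% lower. Its level was 2.49, 2.91 and 3.18 with ASCs and 2.08, 2.19 and 2.48 with BAM only, without overlap, which 0.834% of named genes showed in this direction. The difference was 0.67 ± 0.09, or 1.59-fold, with an adjusted p of 1.37e-07, while the other 7 genes differed by -0.28 to -0.02.

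**Figure D2:**
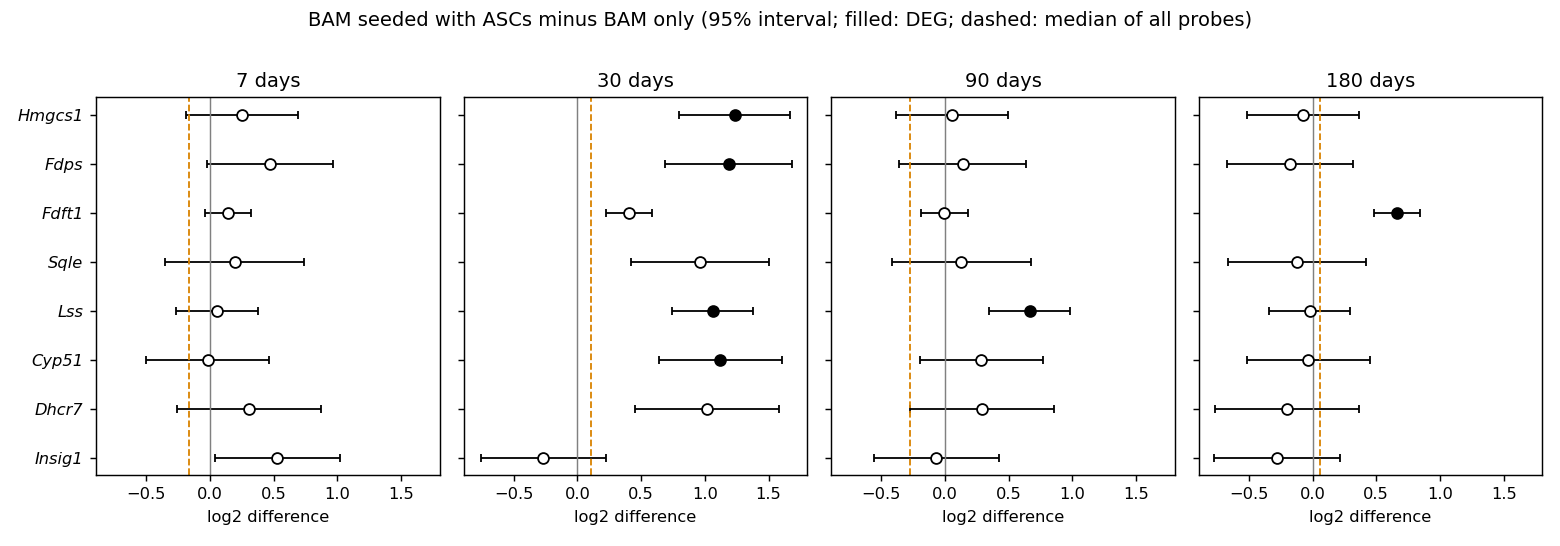
Level with ASCs minus level with BAM only for each gene (x axis, log2, with the 95% interval of the fit) at 7, 30, 90 and 180 days. Filled points are DEGs, namely Hmgcs1, Fdps, Lss and Cyp51 at 30 days, Lss at 90 days and Fdft1 at 180 days. The dashed line is the median of all probes.

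The differences between grafts were themselves compared between days. The difference of Lss was 1.00 ± 0.22 larger at 30 days than at 7 days (adjusted p = 0.00604), and Lss was 1 of 8 genes past the thresholds there, against 0.764% of named genes in that direction and 0.108% in the other. For Cyp51 and Hmgcs1 the same step was 1.14 and 0.98, with adjusted p of 0.0357 and 0.0455, which did not pass. From 30 to 90 days the difference fell by 1.18 for Hmgcs1 (adjusted p = 0.00463), 1 of 8 genes, against 4.99% of named genes and 2.70% the other way. Between 30 and 180 days it fell by 1.31 for Hmgcs1, 1.36 for Fdps and 1.08 for Lss, with adjusted p of 0.00461, 0.00991 and 0.000984, so 3 of 8 genes passed, against 0.649% of named genes and 1.22% the other way. The difference of Fdft1 was larger at 180 days than at 90 days by 0.67 ± 0.13 (adjusted p = 6.55e-05), again 1 of 8 genes, against 3.91% and 3.39% the other way. After quantile normalization the step of Lss from 7 to 30 days was 0.97 with an adjusted p of 0.012, and that of Fdft1 from 90 to 180 days was 0.56, under the fold threshold. Sqle, Cyp51, Dhcr7 and Insig1 passed between none of the 6 pairs of days. From 7 to 90 and from 7 to 180 days, 0 of 8 genes passed in limma, against 3.37% and 5.07% of named genes with a larger difference at the later day and 0.865% and 2.07% with a smaller one. Fdft1 had an adjusted p of 0.00221 from 7 to 180 days, with a change of 0.52 that was under the fold threshold.

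Over healing, the 8 genes took different courses. Successive steps of one graft share the arrays of the day between them. With ASCs, Cyp51 rose by 0.91 ± 0.24 from 7 to 30 days (adjusted p = 0.00435), 1 of 8 genes, against 4.98% of named genes higher and 1.85% lower. This call was lost without replicate 2 or 7 at 30 days or without replicate 3 at 7 days. Fdft1 was 0.58 ± 0.09 higher (adjusted p = 2.39e-06), just under the fold threshold. The differences of Hmgcs1 and Sqle were 0.62 and 0.77, with adjusted p of 0.0303 and 0.0294. From 30 to 90 days with ASCs, 5 of 8 genes fell, against 11.2% of named genes lower and 17.4% higher. The falls were largest for Sqle, which fell by 1.47 (adjusted p = 1.15e-05), Hmgcs1, which fell by 1.25 (4.39e-06), and Insig1, which fell by 1.23 (3.69e-05). Cyp51 and Fdps also fell, by 0.82 and 0.79, with adjusted p of 0.00394 and 0.00673. Of 16 fits that each left out 1 array, the call of Fdps was lost in 10 and that of Cyp51 in 4. The count was 3 without replicate 2, 7 or 8 at 30 days, or without replicate 7 at 90 days. From 90 to 180 days, only Fdft1 rose, by 0.76 ± 0.09 (adjusted p = 1.88e-09), against 1.99% of named genes higher and 0.681% lower.

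With BAM only, Lss fell by 0.62 ± 0.16 from 7 to 30 days (adjusted p = 0.00296), 1 of 8 genes, against 5.17% of named genes lower and 4.93% higher. That call was lost without replicate 2 at 7 days or replicate 4 at 30 days. Insig1 fell by 1.43 ± 0.25 from 30 to 90 days (adjusted p = 1.18e-06), again 1 of 8 genes, against 10.7% lower and 30.6% higher. Lss rose by 0.94 ± 0.16 from 90 to 180 days (adjusted p = 4.84e-06), against 4.78% of named genes higher and 3.05% lower. The fall of Insig1 from 30 to 90 days was found with both grafts, and both cross the change of scan date at this step.

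Set in order of their means over the 8 groups, 7 of the 8 genes showed little separation between neighbours, with at most 1 of 7 gaps larger than the SD of both groups. Hmgcs1, Fdps, Sqle, Cyp51 and Dhcr7 were all highest with ASCs at 30 days. The gap to the next group exceeded the SD of both groups for Hmgcs1 (3.09 against 2.47), Sqle (1.86 against 1.09), Cyp51 (0.24 against -0.50) and Dhcr7 (a gap of 0.60), but not for Fdps (1.73 against 1.39). Below that first place, none of the neighbours of these 5 genes was separated by more than both SDs. Fdft1 had the most structured order. It was highest with ASCs at 180 days, at 2.89, without overlap with the next group at 2.23, and lowest at 7 days, at 1.65 with ASCs and lower still with BAM only. The means of Insig1 fell into 2 blocks, from -0.36 to 0.24 in the 4 groups of 7 and 30 days and from -1.67 to -1.19 in the 4 groups of 90 and 180 days. This split coincides with the scan date. Single arrays were not fully split, since the ranges with BAM only at 7 and at 90 days overlapped. Lss was highest at 180 days, at 0.64 with BAM only and 0.62 with ASCs, which did not differ beyond their spread, and lowest with BAM only at 30 days, at -0.67.

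Within groups, most of the genes varied together from array to array. Over the deviations of 64 arrays from their group means, 28 pairs of genes were correlated, with two-sided permutation within groups and Benjamini-Hochberg adjustment over the 28 pairs. The 15 pairs among Hmgcs1, Fdps, Sqle, Lss, Cyp51 and Dhcr7, set apart after the values were seen, had a Pearson r of 0.728 to 0.931 and a Spearman rho of 0.651 to 0.924. Their permutation p was 1e-05, the smallest that the resamples can give, and 1.9e-05 after adjustment. Without the 2 arrays farthest from the median of the first gene, r in these pairs was 0.662 to 0.915. The closest pair was Hmgcs1 and Sqle. By contrast, the 7 pairs with Fdft1 had an r of 0.137 to 0.290, and 1 of them passed an adjusted p of 0.05 (Fdft1 and Lss, permutation p = 0.0326, adjusted 0.0457, rho = 0.262). The 7 pairs with Insig1 had an r of 0.137 to 0.457, of which 4 passed. As a description of the rest of the array, the median r with 5218 other genes detected on all arrays was -0.0550 for Hmgcs1 and -0.0565 for Sqle, and 95% of those genes had an r under 0.568 and 0.598. The arrays share 1 scaling each, and the share of probes above background correlated with the mean of the 8 genes at r = -0.12 (rho = -0.0875, a description without a test).

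**Figure D3:**
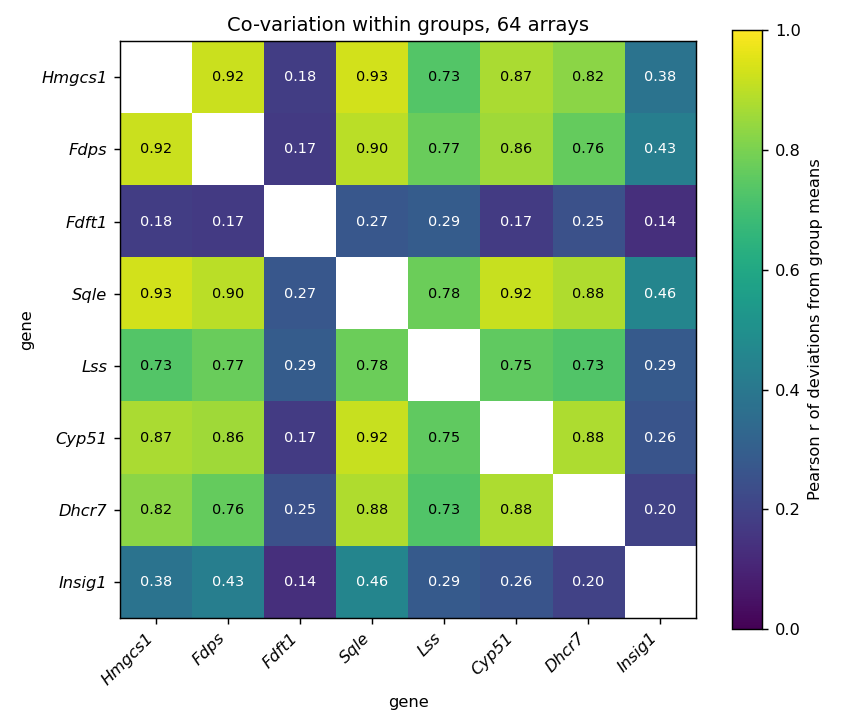
Pearson r between the deviations of each pair of the 8 genes from their group means over 64 arrays. The 6 genes Hmgcs1, Fdps, Sqle, Lss, Cyp51 and Dhcr7 form a bright block from 0.728 to 0.931, while the lines of Fdft1 and Insig1 stay between 0.137 and 0.457.

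The arrays at the ends of each group were often the same for several genes. Replicate 3 with ASCs at 90 days was highest for all 8 genes, and replicate 7 of that group lowest for 7. With BAM only at 7 days, replicate 2 was highest for 7 genes. With BAM only at 90 days, replicate 4 was highest and replicate 5 lowest for 7 genes each. With ASCs at 180 days, replicate 5 was highest for 6 genes and replicate 7 lowest for 7.

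Among 5218 other genes well above background on all 64 arrays, the 10 whose within-group deviations were most like the mean of the 8 genes were Msmo1 (r = 0.94), Idi1 (0.92), Ppa1 (0.88), Acat2 (0.87), Ttc9 (0.86), Fasn (0.85), Ppp2r5c (0.82), Bop1 (0.82), Sc5d (0.81) and St14 (0.81), over 64 arrays and given without a test. Their Spearman rho ran from 0.74 to 0.92. Msmo1, Idi1, Acat2 and Sc5d are enzymes of the pathway, and Fasn is fatty acid synthase. Ppa1, a pyrophosphatase, Ttc9, Ppp2r5c, a phosphatase subunit, Bop1, a ribosome biogenesis factor, and St14, an epithelial serine protease, were in none of the lists.

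The rest of the pathway was read from lists of other enzymes and regulators. At 30 days, 6 of 14 other cholesterol synthesis enzymes were DEGs, all higher with ASCs, against 1.37% of named genes higher and 0.592% lower. Of the 14, 13 had a positive difference, with a median of 0.84 against 0.08 over all named genes. The largest differences were those of Tm7sf2, a sterol reductase, with 1.45 ± 0.31, Sc5d, a sterol desaturase, with 1.28 ± 0.26, and Idi1, which isomerizes isopentenyl diphosphate, with 1.18 ± 0.28. Their adjusted p were 0.00202, 0.00137 and 0.00481, and none of the 3 overlapped between grafts. The call of Idi1 was lost in 6 of 16 fits that each left out 1 array. Acat2 (0.97), Msmo1 (0.96) and Mvd (0.71) were the other DEGs, named after their values were seen. Together with the 7 enzymes among the 8 genes, 10 of 21 enzymes were DEGs at 30 days, all higher, and the median difference was 0.97.

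Leaving out replicates 1 and 2 with ASCs at 30 days, 3 of the 14 other enzymes were DEGs. Leaving out 1 array at a time gave 3 to 8. The count was 3 without replicate 2, 7 or 8 with ASCs and without replicate 2, 3 or 4 with BAM only.

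**Figure D4:**
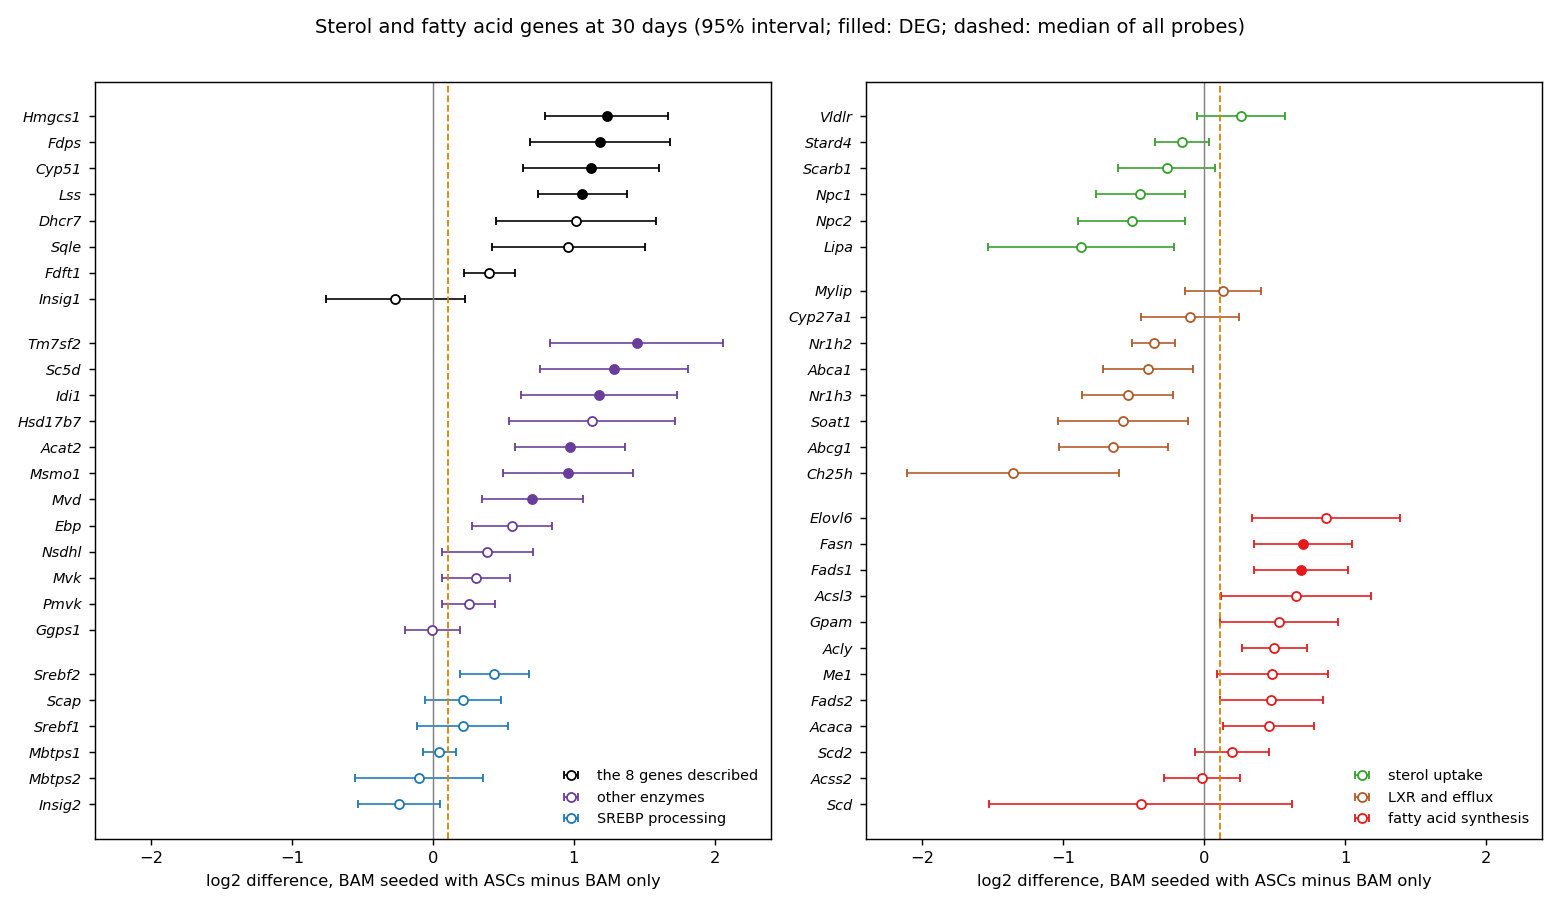
Level with ASCs minus level with BAM only at 30 days (x axis, log2, with the 95% interval) for the 8 genes, the other enzymes and the regulators of sterol and fatty acid metabolism. Filled points are DEGs, the dashed line is the median of all probes, and some genes of the lists are not shown. Among the 8 genes and the other enzymes shown in the left panel, all but Insig1 and Ggps1 lie right of 0, and 10 are filled.

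Regulators and uptake genes did not follow the enzymes as a group. Of 6 genes of sterol sensing and SREBP processing, 0 were DEGs at 30 days in limma and 1, Srebf2, had an unadjusted p below 0.05, with a difference of 0.44 ± 0.12 and an adjusted p of 0.0199. Srebf2 encodes SREBP2. The 8 genes of sterol uptake and transport had a median difference of -0.21. Among 9 genes of LXR and sterol efflux or esterification, of which Apoe was saturated on all arrays at 30 days, 0 were DEGs in limma at 30 days, 1 had a positive difference and the median was -0.40, with 6 lower and 0 higher at an unadjusted p below 0.05, against 10.4% of named genes lower and 16.7% higher at that p. Of 12 genes of fatty acid synthesis, 2 were DEGs and higher, against 1.37% of named genes, and the median was 0.49. They were Fasn (0.70 ± 0.17, adjusted p = 0.00812) and Fads1, a desaturase (0.69 ± 0.17, adjusted p = 0.00661). Both fatty acid calls were lost without replicates 1 and 2 with ASCs, with adjusted p of 0.0205 and 0.0191, and each in 10 of 16 fits that left out 1 array.

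Outside 30 days, DEGs between grafts were few in these lists. Of all named genes, 2.63% were higher and 5.12% lower at 7 days. These shares were 3.16% and 7.05% at 90 days and 1.02% and 0.0318% at 180 days. Tm7sf2 was the only one of 14 other enzymes at 7 days (1.21 ± 0.31, adjusted p = 0.00333), together with the fatty acid genes Elovl6 (1.26) and Acsl3 (1.23). At 90 days, Nsdhl (0.96 ± 0.16, adjusted p = 3.21e-06) was the only one of the 14. The efflux gene Abca1 (0.73) was a DEG at 90 days. Apoe also passed there, but its probe was saturated on 6 of 8 arrays with ASCs and 8 of 8 with BAM only, so no difference was read from it. At 180 days, 0 of 14 other enzymes were DEGs in limma and 2 had a positive difference, and Scarb1, a lipoprotein receptor, was higher by 0.67 ± 0.17 (adjusted p = 0.00798), a call lost in 8 of 16 fits that left out 1 array, with the difference down to 0.55. With ASCs from 30 to 90 days, 4 of the 14 other enzymes fell, among them Msmo1, Idi1 and Mvd, while Nsdhl rose, and 6 of 8 uptake genes fell. Among named genes, 11.2% were lower and 17.4% higher over this step. Msmo1 fell by 1.27 (adjusted p = 8.12e-06) and Idi1 by 1.19 (0.000307).

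Genes of these lists also changed over healing. From 30 to 90 days with BAM only, 0 of 14 other enzymes passed in limma, against 10.7% of named genes lower and 30.6% higher. Lipa, which frees cholesterol from esters in the lysosome, fell by 2.02. Npc2 and Npc1, which carry cholesterol out of the lysosome, fell by 1.16 and 1.04. Lipa also fell with ASCs, by 1.28 (adjusted p = 0.00102). From 90 to 180 days with BAM only, Tm7sf2 and Nsdhl rose by 1.03 and 0.99 (adjusted p = 0.00958 and 1.79e-06). The call of Tm7sf2 was lost in 10 of 16 fits that left out 1 array, where its difference was as low as 0.79.

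Markers of the cell types in the wall were read beside the 8 genes, since their levels could move with them. At 30 days, 0 of 9 urothelial markers were DEGs in limma, against 1.37% of named genes higher and 0.592% lower. All 9 had a positive difference, with a median of 0.74. Of these, 3 (Krt5, Krt7 and Krt8) had an unadjusted p below 0.05, against 16.7% of named genes higher and 10.4% lower. The summed urothelial level was 7.00 to 7.73 with ASCs and 5.95 to 7.13 with BAM only, and none of the 9 markers was at background in either group. Macrophage markers had a median difference of -0.64 and a summed level of 5.50 to 6.59 with ASCs and 6.46 to 6.98 with BAM only, where Marco was at background on all arrays. T and B cell markers had a median of -0.90 and neutrophil markers one of 0.91, neither list held a DEG, and Mmp8, a neutrophil marker, was at background on all arrays with BAM only. At 7 days, 6 of 9 urothelial markers were DEGs and higher with ASCs, against 2.63% of named genes higher and 5.12% lower. Their median difference was 2.05. Within groups, the summed urothelial level followed the mean of the 8 genes with r = 0.52 (rho = 0.61), that of cycling cell markers with r = 0.58 (rho = 0.41) and that of Schwann cell markers with r = -0.53 (rho = -0.38) over 64 arrays, given as a description. Without the 2 arrays farthest from the median of the marker sum these were 0.57, 0.49 and -0.41. Skeletal muscle markers had r = -0.41, or -0.19 without 2 arrays, and the other cell type lists -0.26 to 0.30. Within the 8 arrays with ASCs at 30 days, r was 0.44 for urothelium, 0.89 for cycling cells and -0.87 for Schwann cells. There neutrophils had 0.82, endothelium 0.64 and macrophages -0.63, and the other cell type lists -0.33 to 0.16. Between grafts at 30 days, cycling cell markers had a median difference of 0.02 and Schwann cell markers one of 0.05. Neither of these lists held a DEG. The summed level of cycling cells was 2.35 to 3.96 with ASCs and 2.53 to 3.68 with BAM only. That of Schwann cells was 2.15 to 3.19 with ASCs and 2.34 to 3.88 with BAM only. The part of these cell types in the differences between grafts was not tested at any day.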

How the data were processed

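RNA of 64 reconstructed bladder walls was hybridized to 1-color Agilent rat arrays, 8 per graft and day. The deposited files hold the scanner intensity of each spot, and the processed signal had been background-corrected by the authors with Agilent Feature Extraction 12.0.1.1. Of 62976 spots, 58717 were gene spots. Control spots and spots flagged as outliers were left out, spots of a probe were averaged, and 115 probe-array values with every spot flagged were left empty in the fit. Levels were the log2 processed signal less the 75th percentile of the same array. Genes were named through RefSeq accessions of build GRCr8, which matched 18758 probes and 15715 genes, and each gene was read from its brightest probe.

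Groups were compared with limma 3.58.1 in R 4.3.3, with 1 mean per group and p values adjusted over all gene probes. The fit was tested on simulated data. Correlations used 100000 permutations within groups. Python 3.11.15, numpy 2.4.6, pandas 2.3.3 and scipy 1.17.1 were used. The 8 genes and all lists were chosen with earlier results of these data known. Named besides the 8 genes were at most the 3 largest DEGs each way per list and comparison, the 10 genes most alike in co-variation, and, after their values were seen, Acat2, Msmo1, Mvd, Srebf2, Ggps1 and 3 keratins. Some genes of the lists are counted but not reported here by name. Marker genes were given by list. The alternatives tried were background correction by normexp (offset 50), quantile normalization, a percentile over detected probes, the authors' value table, flagged spots kept, dim probes left out, a replicate block, an unmoderated two-way analysis of variance, fits of the 2 groups alone, other thresholds, the mean of probes, and each array left out. The value table equalled the scanner signals within 0.01 (log2) for 99% of filled spots on 61 of 64 arrays, and was empty at 24873 spots of 1 of these arrays. Rats of the same replicate number were not treated as pairs in the main fit. Correlations of same-numbered arrays were over 0.1 for 1 to 3 of 8 pairs per day. These arrays lay on different slides, so the correlations cannot exclude a pairing. No 2 arrays correlated above 0.999. The number of arrays limits the precision. The p values measure the spread between arrays of a group, each from 1 rat and all on 1 slide. They do not cover a spread between slides.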

Additional observations from a re-analysis of the deposited data

Results flagged for a closer look

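The level of Lss was far from the rest of its group on 2 arrays. With BAM only at 7 days, replicate 2 stood at 0.70 with the next array at 0.07, and with BAM only at 180 days, replicate 3 stood at 1.29 with the next at 0.74. These were 2 of 64 sets tested by gap over range, each set being 1 gene in 1 group. Chance alone gives about 1 in 20, so 2 of 64 is not more than chance gives. Replicate 2 at 7 days was also the highest array of its group for 7 of the 8 genes.

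The difference between grafts changed between days for 4 of the 8 genes by a test of the change itself. For Lss it was 1.00 larger at 30 than at 7 days. For Hmgcs1 it changed by -1.18 from 30 to 90 days and by -1.31 from 30 to 180 days. Over that longer step it changed by -1.36 for Fdps and by -1.08 for Lss. For Fdft1 it was 0.67 larger at 180 than at 90 days.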

How the results depend on the processing

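Counts of the 8 genes past the thresholds between grafts stayed within 1.5 times under most alternatives. With an adjusted p below 0.05 and no fold threshold, 7 rather than 4 genes passed at 30 days, 2 rather than 1 with BAM only from 7 to 30 days, 4 rather than 1 with BAM only from 30 to 90 days, and 4 rather than 1 with ASCs from 7 to 30 days. With a 2-fold threshold, the count was 0 rather than 1 at 90 and at 180 days between grafts, with BAM only from 7 to 30 and from 90 to 180 days, and with ASCs from 7 to 30 and from 90 to 180 days, and 3 rather than 5 with ASCs from 30 to 90 days. At 90 days it was 0 with normexp and with the 2 groups alone. With ASCs from 7 to 30 days it was 0 with the 2 groups alone and without replicates 1 and 2 of 30 days, an alternative chosen after seeing the data, and 3 at an unadjusted p below 0.01. After quantile normalization it was 0 rather than 1 for the change of the graft difference from 7 to 30 and from 90 to 180 days. The cause of these changes was not tested, beyond the stricter or looser thresholds themselves.

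Among the 14 other enzymes, an adjusted p below 0.05 gave 2 rather than 1 at 7 days, 4 rather than 1 at 90 days and 1 rather than 0 at 180 days between grafts. It gave 3 rather than 1 and 5 rather than 2 with BAM only from 7 to 30 and from 90 to 180 days, and 4 rather than 1, 8 rather than 5 and 1 rather than 0 with ASCs over the 3 steps. A 2-fold threshold gave 3 rather than 6 at 30 days, 0 rather than 1 at 90 days, 1 rather than 2 with BAM only from 90 to 180 days and 2 rather than 5 with ASCs from 30 to 90 days. An unadjusted p below 0.01 gave 3 at 7 days, 2 at 90 days and 3 with ASCs from 7 to 30 days. The percentile over detected probes gave 2 at 7 and at 90 days. With BAM only from 7 to 30 days, normexp and the 2 groups alone gave 0, and from 90 to 180 days normexp, the 2 groups alone, the unmoderated analysis of variance and the mean of probes gave 1. With ASCs from 7 to 30 days quantile normalization gave 0, and without replicates 1 and 2 the count at 30 days was 3.

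With the replicate number as a block, the count of the other enzymes was 1 rather than 2 with BAM only from 90 to 180 days and 4 rather than 6 between grafts at 30 days, and 2 rather than 3 of the 8 genes changed their graft difference from 30 to 180 days. Each other count of the 8 genes was the same with the block.

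Leaving out 1 array at a time, the count of the 8 genes was 0 at 7 days, 3 to 4 at 30 days, 0 to 1 at 90 days and 1 at 180 days. With BAM only it was 0 to 1, 1 to 2 (2 without replicate 4 of 90 days) and 1 over the 3 steps, and with ASCs 0 to 2, 3 to 6 and 1. For the other enzymes it was 0 to 2 at 7 days (0 without replicate 7 with BAM only), 3 to 8 at 30 days, 1 to 2 at 90 days and 0 at 180 days, then 1, 0 and 1 to 2 with BAM only and 1 to 2, 4 to 7 and 0 with ASCs.

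Differences close to 0 changed sign. Cyp51 at 7 days (-0.02) was 0.0158 with quantile normalization and 0.0845 with the percentile over detected probes. Fdft1 at 90 days (-0.00) was 0.0277 with normexp, 0.042 with quantile normalization and 0.045 with the percentile over detected probes. Cyp51 at 180 days (-0.03) was 0.00194 with normexp. The probe of Apoe was saturated on 8 of 8 arrays with BAM only and 6 of 8 with ASCs at 90 days and on 5 of 8 with BAM only at 180 days, so its fitted values are not differences in level. Quantile normalization turned the fitted value between grafts at 90 days from 0.76 to -0.135 and that with BAM only from 90 to 180 days from 0.61 to -0.131. Leaving out 1 array at a time, the ranges that crossed 0 were Cyp51 -0.119 to 0.111 and Lss -0.00286 to 0.163 at 7 days, Hmgcs1 -0.0518 to 0.179, Sqle -0.0703 to 0.282, Fdft1 -0.053 to 0.0519, Fdps -0.032 to 0.239 and Insig1 -0.177 to 0.0278 at 90 days, and Hmgcs1 -0.225 to 0.00573, Sqle -0.336 to 0.0493, Cyp51 -0.176 to 0.0802 and Lss -0.0958 to 0.0688 at 180 days.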
